A study of Homo sapiens with 6 samples.

Results

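The 9 genes described here encode the enzymes of the second part of glycolysis, from triose phosphate isomerase to pyruvate kinase. They were chosen by symbol, 9 of the 60675 genes in the count files, because they catalyze 6 consecutive reactions of the pathway. They were measured by RNA-seq in PLC/PRF5 cells, a line from a human hepatocellular carcinoma (HCC), in 3 control libraries and 3 libraries after knockdown of MTR4 (MTR4 KD). MTR4 is an RNA helicase of the nuclear exosome, the complex that trims and degrades nuclear RNA. The paper's methods describe short hairpin RNA from lentiviral vectors, for stable and for doxycycline-inducible silencing of MTR4. According to its results, the sequenced cells were compared before and after induction of the knockdown. The treatment field of all 6 samples names the knockdown, so the groups were taken from the titles and the genotype labels, control and MTR4 KD. No library of doxycycline-treated cells with a scramble hairpin was analysed here. The paper reports that doxycycline alone left the mRNA of the glycolytic genes it measured unchanged in cells with an inducible scramble hairpin. The labels do not say whether the 3 libraries of a group came from separate cultures. The p-values therefore measure the spread between these libraries, which may be technical.

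In glycolysis, the first part of the pathway spends ATP to cleave a hexose into triose phosphates, and the lower part returns ATP and makes pyruvate. TPI1 interconverts the triose phosphates, GAPDH oxidizes glyceraldehyde 3-phosphate with NAD+ as the acceptor, PGK1 forms ATP, PGAM1 moves the phosphate group, enolase (ENO1, ENO2 and ENO3) removes water to give phosphoenolpyruvate, and pyruvate kinase (PKM and PKLR) forms ATP and pyruvate. Enolase and pyruvate kinase have isozymes from separate genes. ENO1 is the ubiquitous enolase, ENO2 is known from neurons and ENO3 from muscle. PKM is the pyruvate kinase of most tissues and tumors, whereas PKLR makes the liver and red cell enzymes, so that the balance of PKM and PKLR is of particular interest in cells of hepatocyte origin.

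Several of these genes are textbook targets of the hypoxia-inducible factors, whose binding sites hold the core letters ACGTG. PGK1 and ENO2 fell after MTR4 knockdown, while the change of ENO1, an isozyme of ENO2, did not pass the test. The sequences before the start of PGK1, ENO1 and ENO2 are shown as examples. These sequences were picked by the changes of their genes, so they cannot show whether the letters go with a change. They are the 250 bases before the start in RefSeq on GRCh38.p14, written 5′ to 3′ on the strand of the gene. Capitals mark ACGTG and the GC box GGGCGG, each on either strand (CACGT and CCGCCC on the other). PGK1 is on the plus strand (chrX:78103998-78104247), ENO1 on the minus strand (chr1:8878687-8878936) and ENO2 on the plus strand (chr12:6914330-6914579).
PGK1: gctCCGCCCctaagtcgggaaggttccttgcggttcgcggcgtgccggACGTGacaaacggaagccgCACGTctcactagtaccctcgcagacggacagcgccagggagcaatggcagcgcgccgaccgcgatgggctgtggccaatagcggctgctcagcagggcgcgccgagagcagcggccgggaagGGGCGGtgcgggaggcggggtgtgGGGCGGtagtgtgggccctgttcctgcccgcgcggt
ENO1: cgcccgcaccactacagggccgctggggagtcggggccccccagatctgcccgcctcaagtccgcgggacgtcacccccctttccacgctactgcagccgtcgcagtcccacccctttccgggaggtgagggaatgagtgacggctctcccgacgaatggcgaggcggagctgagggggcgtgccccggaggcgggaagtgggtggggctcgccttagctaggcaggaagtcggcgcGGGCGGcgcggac
ENO2: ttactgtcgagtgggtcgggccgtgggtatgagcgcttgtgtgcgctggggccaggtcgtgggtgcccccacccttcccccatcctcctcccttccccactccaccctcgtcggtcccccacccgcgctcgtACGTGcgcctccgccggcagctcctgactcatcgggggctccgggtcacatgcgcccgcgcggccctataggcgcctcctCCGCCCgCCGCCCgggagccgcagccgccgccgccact

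The window of PGK1 held 2 hypoxia cores, which began 202 and 183 bases before the start, and 3 GC boxes. The window of ENO2 held 1 core, 118 bases before the start, and 2 GC boxes that adjoin each other but for 1 base. The window of ENO1 held 1 GC box and no ACGTG on either strand, and sequence outside the 250 bases was not searched. RefSeq gave a promoter for each of the 9 genes, 12 in all. ACGTG was found in 5 of the 12 promoters, those of 5 genes (TPI1, GAPDH, PGK1, ENO2 and PKLR), and GGGCGG in 8 of the 12. PKM also fell (log2 fold change -0.77) but its promoter held no ACGTG, while the changes of TPI1 and PKLR did not pass the test. In GAPDH and PKLR these letters lay within an E-box, CACGTG, which reads the same on both strands and was counted as a core on each. Among the 35116 promoters of the RefSeq table, windows of equal length held ACGTG in 18.5%, CACGTG in 6.34% and GGGCGG in 42.6%. A match of letters is a description of the sequence, and its use in these cells was not tested.

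The libraries had 60686786 to 72708682 reads assigned to genes. The knockdown was visible in MTR4 itself (symbol MTREX), which was at 72.2 to 87.4 CPM in the control libraries and 44.1 to 48.8 CPM in the MTR4 KD libraries (log2 fold change -0.77, edgeR's quasi-likelihood test, adjusted p = 0.00641). CPM are read counts scaled to the library total and by the TMM method. The share of reads with a non-unique alignment, which are not counted on genes, was 34.7% to 37.5% of all entries in MTR4 KD replicate 3 and in replicates 1 and 3 of the control, and 14.8% to 18.2% in the other 3 libraries. Replicates from the same side of this split were more alike than replicates across it, and each side held both conditions. The split comes from the read classes and no label names it. Changes are therefore also given within each side and for a fit with the split as a second term. MTR4 KD replicate 3 is the only MTR4 KD library on its side, and control replicate 2 the only control library on the other. Neither difference within a side is thus replicated in both conditions. Hepatocyte markers showed cells of hepatocyte type, but they cannot tell the labelled line from other hepatoma lines. All 12 genes of the list (ALB, APOA1, SERPINA1, HNF4A and others) were expressed. Their summed level was 25974 to 27669 CPM in the control and 25955 to 27763 CPM in the MTR4 KD libraries. The sum is led by SERPINA1, and single markers moved with the knockdown, as 4 of the 12 rose, among them ALB (log2 fold change 0.29, adjusted p = 0.0480 in edgeR's test) and APOA1 (0.52, adjusted p = 0.00921), and 1 fell, KRT18 (-0.26, adjusted p = 0.0435). Their part in the changes of the 9 genes was not tested.

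All 9 genes passed the filter on low counts. To compare genes with each other, CPM was divided by the length of the canonical transcript in kilobases. On this scale the control level was highest for GAPDH, at 1820 ± 6.25 (SD, n = 3), followed by ENO1 at 1019 ± 38.8, TPI1 at 777 ± 59.6 and PKM at 643 ± 74.0 CPM per kilobase (SD, n = 3 each). PGAM1 was at 239.8 ± 37.1 and PGK1 at 209 ± 6.52 CPM per kilobase (SD, n = 3 each), and their control libraries overlapped. The other isozymes were far lower, with ENO3 at 8.86 ± 0.795, PKLR at 5.32 ± 0.928 and ENO2 at 4.55 ± 0.280 CPM per kilobase (SD, n = 3 each), and PKLR and ENO2 overlapped. The order of the 9 genes was the same after MTR4 knockdown, when no neighbours in it overlapped. It depends on the transcript length assumed. With the length of all annotated exons, TPI1 came before ENO1 in the control libraries, PGK1 came before PKM and PGAM1, and PKLR came before ENO3 in both groups. After knockdown ENO1 came before TPI1 and PGAM1 before PKM on that scale.

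After MTR4 knockdown the estimate was below 0 for 8 of the 9 genes, as it was for 48.9% of all 18075 tested genes. The fall passed the test (edgeR's quasi-likelihood test, Benjamini-Hochberg adjusted p under 0.05 over all tested genes) for 4 of the 9, namely GAPDH, PGK1, ENO2 and PKM, against 2.12% of all tested genes, and no member rose, against 1.48%. Every MTR4 KD library lay below every control library for 7 of the 9 genes, all but ENO3 and PKLR, against 12.6% of all tested genes. The median log2 fold change of the 9 genes was -0.40, and that of all tested genes was 0.00619. With the split by non-unique reads as a second term, 7 of the 9 genes fell with an adjusted p under 0.05, against 10.8% of all tested genes, with ENO3 and PKLR again as the exceptions. Since these are bulk libraries, fewer cells that express a gene and less RNA per cell cannot be told apart.

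**Figure D1:**
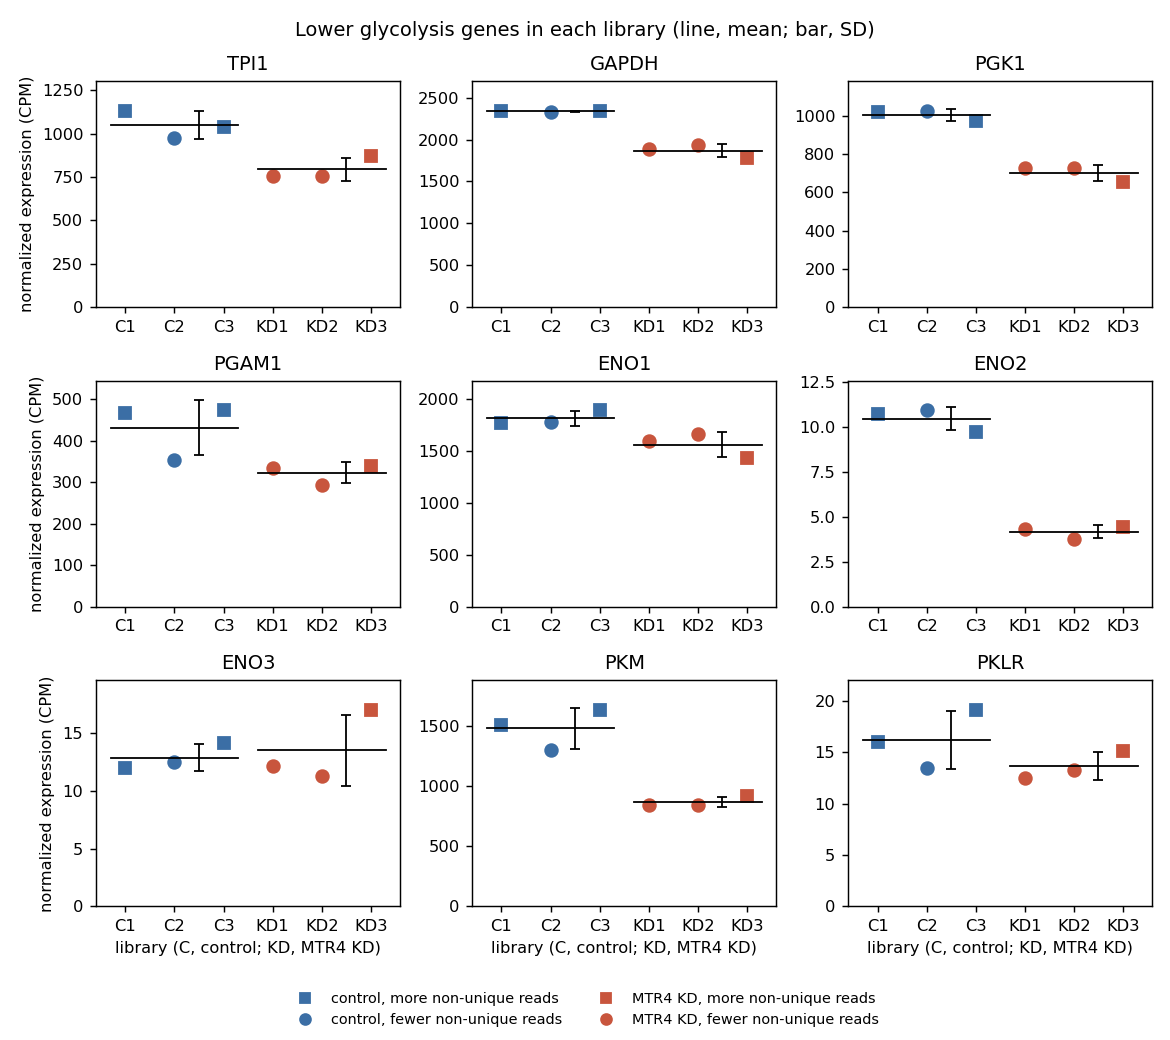
Normalized expression (CPM, axes from 0) of the 9 lower glycolysis genes in each control (C1 to C3, blue) and MTR4 KD library (KD1 to KD3, red), with the mean as a line and the SD as a bar; squares and circles are libraries with more non-unique reads and with fewer. The groups separate for every gene except ENO3, where MTR4 KD replicate 3 is the highest library at 17.0 CPM, and PKLR, where the groups overlap.

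TPI1 (ENSG00000111669, chromosome 12, from 6867420 to 6870948 on GRCh38, the build of all positions given here) is the isomerase that opens this stretch of the pathway. The control libraries had 1134, 973 and 1041 CPM and the MTR4 KD libraries 757, 756 and 869.55 CPM, given here and for the other genes in the order of replicates 1 to 3. The highest MTR4 KD library was thus below the lowest control library. The MTR4 KD mean was 75.7% of the control mean, with a log2 fold change of -0.40 ± 0.0859 (SE), and the adjusted p of 0.0535 in edgeR's test missed the threshold. The log2 difference was -0.32 in the libraries with more and -0.36 in those with fewer non-unique reads, and the adjusted p was 0.000180 with the split as a term.

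GAPDH (ENSG00000111640, chromosome 12, from 6534517 to 6538371) is widely used as a reference transcript on the assumption that its level is constant. The control libraries had 2339, 2330.4 and 2346.5 CPM, the smallest spread relative to the mean among the 9 genes, and the MTR4 KD libraries had 1884, 1936.5 and 1782 CPM. All MTR4 KD libraries were below all control libraries. The mean fell from 2338.5 ± 8.03 to 1868 ± 78.6 CPM (SD, n = 3 per group), to 79.9% of the control (log2 fold change -0.32 ± 0.0581 (SE), adjusted p = 0.0307 in edgeR's test). The log2 difference was -0.39 among libraries with more non-unique reads and -0.29 among the others. ACTB, the β-actin transcript and another common reference, had a log2 fold change of -0.19 itself (adjusted p = 0.192 in edgeR's test), and scaled to ACTB the log2 fold change of GAPDH was -0.13 (adjusted p = 0.357).

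PGK1 (ENSG00000102144, chromosome X, from 78104248 to 78129295), the first of the ATP-forming enzymes, had 1023, 1029 and 972 CPM in the control and 727, 727 and 654 CPM in the MTR4 KD libraries. The groups were far apart relative to their spread, and the MTR4 KD mean was 69.7% of the control mean. The log2 fold change was -0.52 ± 0.0665 (SE) (adjusted p = 0.00921 in edgeR's test), with differences of -0.61 and -0.50 in the libraries with more non-unique reads and with fewer.

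PGAM1 (ENSG00000171314, chromosome 10, from 97426191 to 97433444), the mutase of the pathway, had 467, 355 and 474 CPM in the control and 335, 295 and 340.1 CPM in the MTR4 KD libraries. Control replicate 2, the control library with fewer non-unique reads, was nearer to the MTR4 KD libraries than to the other controls, so the groups were barely separated. The log2 fold change was -0.42 ± 0.121 (SE) (adjusted p = 0.123 in edgeR's test). It was -0.47 within the libraries with more and -0.18 within those with fewer non-unique reads, and -0.32 with the split as a term (adjusted p = 0.00420).

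Of both lower steps with isozymes, enolase had the wider gap between the changes of its genes. ENO1 (ENSG00000074800, chromosome 1, from 8861000 to 8878686) had 1771, 1779 and 1894.5 CPM in the control and 1593, 1662 and 1432 CPM in the MTR4 KD libraries. The groups did not overlap, but the difference was small, with an MTR4 KD mean at 86.1% of the control mean (log2 fold change -0.22 ± 0.0737 (SE), adjusted p = 0.176 in edgeR's test). With the split by non-unique reads as a term the log2 fold change was -0.24 and the adjusted p 0.00807.

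ENO2 (ENSG00000111674, chromosome 12, from 6914580 to 6923697) had 10.7, 10.9 and 9.72 CPM in the control and 4.30, 3.79 and 4.45 CPM in the MTR4 KD libraries. The lowest control library thus had more than the highest MTR4 KD library by a wide margin. The MTR4 KD mean was 40.0% of the control mean, with a log2 fold change of -1.32 ± 0.104 (SE) (adjusted p = 0.00122 in edgeR's test). ENO2 was the only member to fall more than 2-fold with an adjusted p under 0.05, as 0.509% of all tested genes did. The log2 difference was -1.19 among libraries with more non-unique reads and -1.43 among the others.

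ENO3 (ENSG00000108515, chromosome 17, from 4948710 to 4957129) had 12.0, 12.5 and 14.2 CPM in the control and 12.2, 11.3 and 17.0 CPM in the MTR4 KD libraries. The groups overlapped, and MTR4 KD replicate 3 stood above the other 5 libraries. The log2 fold change was 0.07, with a 95% confidence interval from -0.31 to 0.45 (adjusted p = 0.867 in edgeR's test). Without MTR4 KD replicate 3 it was -0.13 (adjusted p = 0.467), so its sign rested on that library.

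PKM (ENSG00000067225, chromosome 15, from 72199029 to 72231591) had the second largest fall of the 9 genes. The control libraries had 1511, 1298 and 1635 CPM and the MTR4 KD libraries 845, 839.6 and 919 CPM. Even the lowest control library was well above the highest MTR4 KD library. The MTR4 KD mean was 58.6% of the control mean (log2 fold change -0.77 ± 0.0943 (SE), adjusted p = 0.00758 in edgeR's test), with differences of -0.77 and -0.62 in the libraries with more non-unique reads and with fewer. The PKM1 and PKM2 forms, which differ by an alternative exon, are counted together here.

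PKLR (ENSG00000143627, chromosome 1, from 155289293 to 155308654) had 16.0, 13.5 and 19.1 CPM in the control and 12.5, 13.3 and 15.1 CPM in the MTR4 KD libraries. The groups overlapped. The log2 fold change was -0.25, with a 95% confidence interval from -0.58 to 0.08 (adjusted p = 0.400 in edgeR's test), and in the libraries with fewer non-unique reads the difference was -0.07. Without control replicate 3 the log2 fold change was -0.11, and without control replicate 2 it was -0.37, neither past the threshold. Of the exonic bases of PKLR, 17.6% are shared with HCN3 on the opposite strand. Also on the opposite strand, GAPDH shares 17.6% of its exonic bases with a long noncoding RNA and ENO3 2.59% with PFN1. PGK1 shares 1.78% of its exonic bases with ATP7A on the same strand. The strand setting of the counting is not given in the sources used here. Whether reads in the overlaps on the opposite strand were assigned to a gene or set aside as ambiguous is therefore not known.

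**Figure D2:**
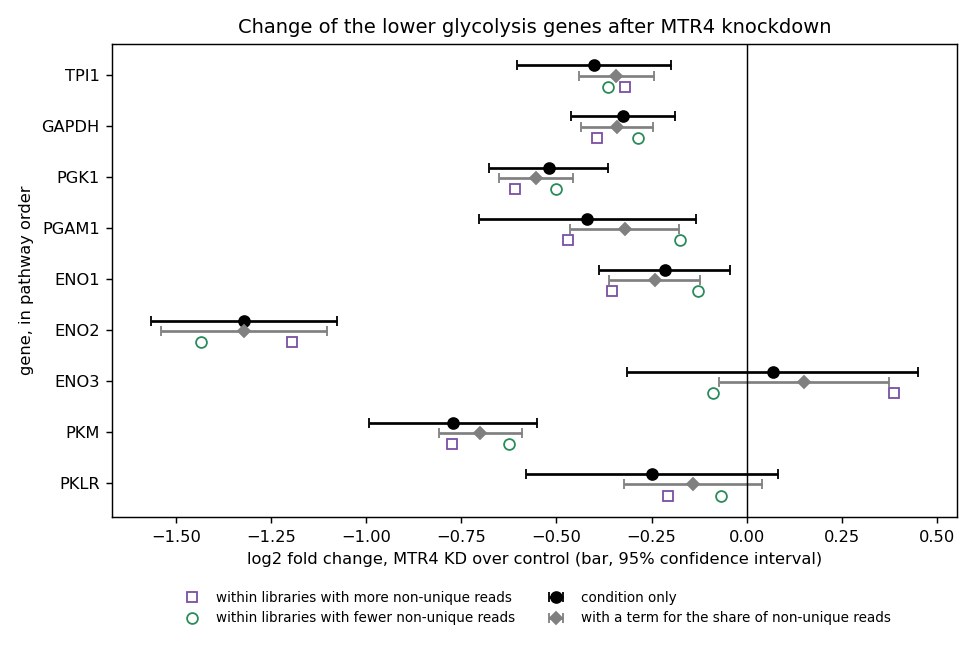
Log2 fold change (MTR4 KD over control) of each gene with its 95% confidence interval, for the fit with condition only (black) and with a second term for the share of non-unique reads (grey), and the difference within each set of libraries (open symbols). ENO2 at -1.32 and PKM at -0.77 lie farthest from 0, and the 95% intervals of ENO3 and PKLR include 0 in both fits.

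When single libraries were left out, the change of ENO2 passed the test each time, with a log2 fold change between -1.37 and -1.26. It was the only called member without control replicate 1, without MTR4 KD replicate 1 or without MTR4 KD replicate 2. PKM and PGK1 narrowly missed the threshold in each of these cases, with adjusted p-values from edgeR's test up to 0.0651 and 0.0588 and log2 fold changes of -0.76 to -0.75 and -0.55 to -0.51. The call of GAPDH was also lost without control replicate 3. TPI1 passed the test without control replicate 2 or without MTR4 KD replicate 3, and PGAM1 without control replicate 2.

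The isozyme balance was examined as a ratio within each library, which needs no scaling between libraries. By transcript length, ENO1 made up 98.7% ± 0.0191 of enolase transcripts before and 98.7% ± 0.354 after knockdown (SD, n = 3 per group), so ENO2 and ENO3 together stayed a small fraction. As shares of all enolase transcripts, ENO2 went from 0.442% ± 0.0427 to 0.207% ± 0.0311 and ENO3 from 0.857% ± 0.0444 to 1.06% ± 0.326 (SD, n = 3 per group). The shares depend on the length used, and with all annotated exons ENO2 had 0.692% in the control and 0.324% in the MTR4 KD libraries. The log2 ratio of ENO2 to ENO1 was -7.73, -7.71 and -7.97 in the control and -8.89, -9.14 and -8.69 in the MTR4 KD libraries. The groups did not overlap, and the mean difference was -1.10 (95% confidence interval -1.53 to -0.68), a 2.15-fold lower ratio. The intervals of the ratios are t intervals with pooled variance and do not come from the exact permutation test given below.

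The ratio of ENO2 to ENO3 was also lower in every MTR4 KD library than in every control library, with a mean log2 difference of -1.37 (95% confidence interval -1.88 to -0.86). The log2 ratio of ENO3 to ENO1 overlapped between the groups, at -6.91 to -6.77 in the control and -6.90 to -6.10 in the MTR4 KD libraries, with a difference of 0.27 (95% confidence interval -0.42 to 0.96). This value rested on MTR4 KD replicate 3, since the difference was 0.03 without it, and it was 0.74 among libraries with more non-unique reads and 0.04 among the others. ENO2 was thus the only enolase whose ratio to both others did not overlap between the groups.

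PKM made up 99.2% ± 0.0528 of pyruvate kinase transcripts before and 98.8% ± 0.0643 after knockdown (SD, n = 3 per group), and PKLR the remaining 0.817% ± 0.0528 and 1.17% ± 0.0643. With the length of all annotated exons, the share of PKLR was 2.86% and 4.07%. A difference in log2 ratio between the groups does not depend on the length. The log2 ratio of PKLR to PKM was -6.97, -6.99 and -6.82 in the control and -6.48, -6.38 and -6.33 in the MTR4 KD libraries. All MTR4 KD libraries were above all control libraries, by 0.53 on average (95% confidence interval 0.33 to 0.72), a 1.44-fold higher ratio, and the log2 difference was 0.57 among libraries with more non-unique reads and 0.56 among the others. The mean level of PKLR itself was not higher after MTR4 knockdown, so the shift in the ratio went with the lower level of PKM. The exact permutation test, two-sided over the 6 libraries, gave p = 0.1 for ENO2 to ENO1, for ENO2 to ENO3 and for PKLR to PKM, the smallest p that 3 against 3 libraries allow, and p = 0.4 for ENO3 to ENO1. Over these 4 ratios the adjusted values were 0.133 and 0.4, so none could pass 0.05.

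**Figure D3:**
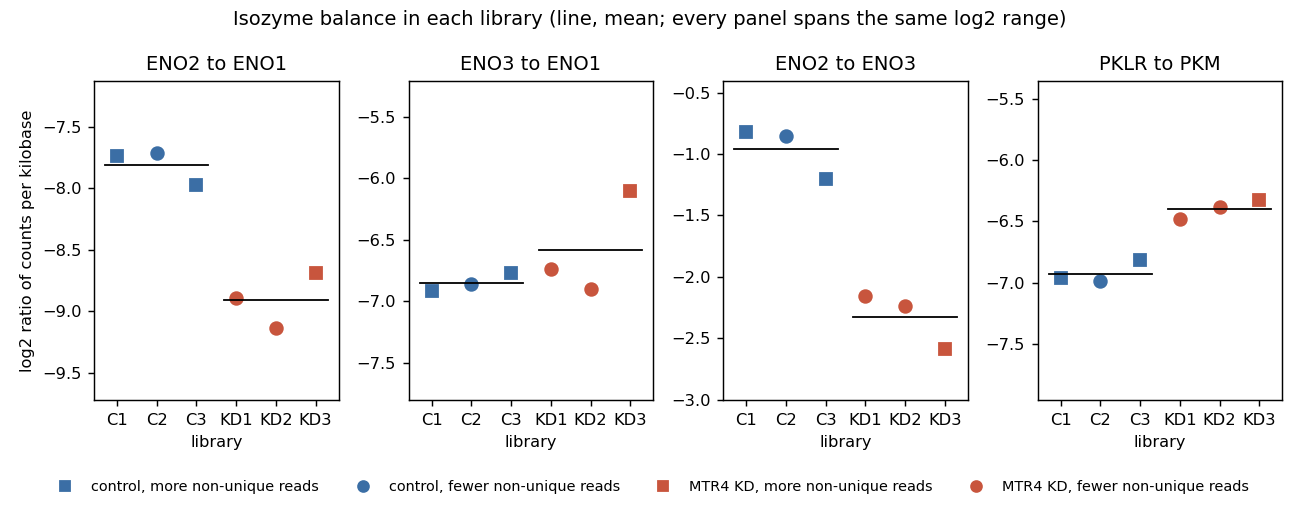
Log2 ratio of counts per kilobase between isozymes in each library, with the group mean as a line and the same log2 span in each panel; squares and circles are libraries with more non-unique reads and with fewer. ENO2 is lower relative to both other enolases in every MTR4 KD library (log2 differences of -1.10 and -1.37), and PKLR is higher relative to PKM (0.53).

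ENO3 is known from muscle, ENO2 from neurons and PKLR from red cells as well as liver. Markers of muscle, neurons and red cells were therefore examined beside these genes. The 7 skeletal muscle markers summed to 0.359 to 0.908 CPM in 5 libraries and to 27.8 CPM in MTR4 KD replicate 3, where each of the 7, including ACTA1 (9.004 CPM), MYH7 (8.32 CPM) and CKM (4.52 CPM), had its highest value. The same library had the highest ENO3. The muscle mutase PGAM2 had 0 reads in all 6 libraries. The part of muscle transcripts in the level of ENO3 was not tested.

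The 5 erythroid markers summed to 0.0995 to 0.212 CPM in 5 libraries and to 18.8 CPM in MTR4 KD replicate 1, mostly HBB at 17.7 CPM, while PKLR was lowest in that library. The 6 neuron markers summed to 48.0 to 59.6 CPM in the control and 43.1 to 47.9 CPM in the MTR4 KD libraries, mostly SNAP25. MAP2, STMN2 and NEFL were highest in control replicate 2, at 10.6, 2.32 and 1.24 CPM, and at or below 0.373 CPM elsewhere. With control replicate 2 left out, the estimate for ENO2 came to -1.29 on the log2 scale (adjusted p = 0.00316 in edgeR's test). With all 6 libraries this estimate was -1.32. The ratio of PKLR to PKM without MTR4 KD replicate 1 differed by 0.57 on the log2 scale, against 0.53 with all 6 libraries. The part of neuron transcripts in the level of ENO2, and of erythroid transcripts in that of PKLR, was not tested.

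**Figure D4:**
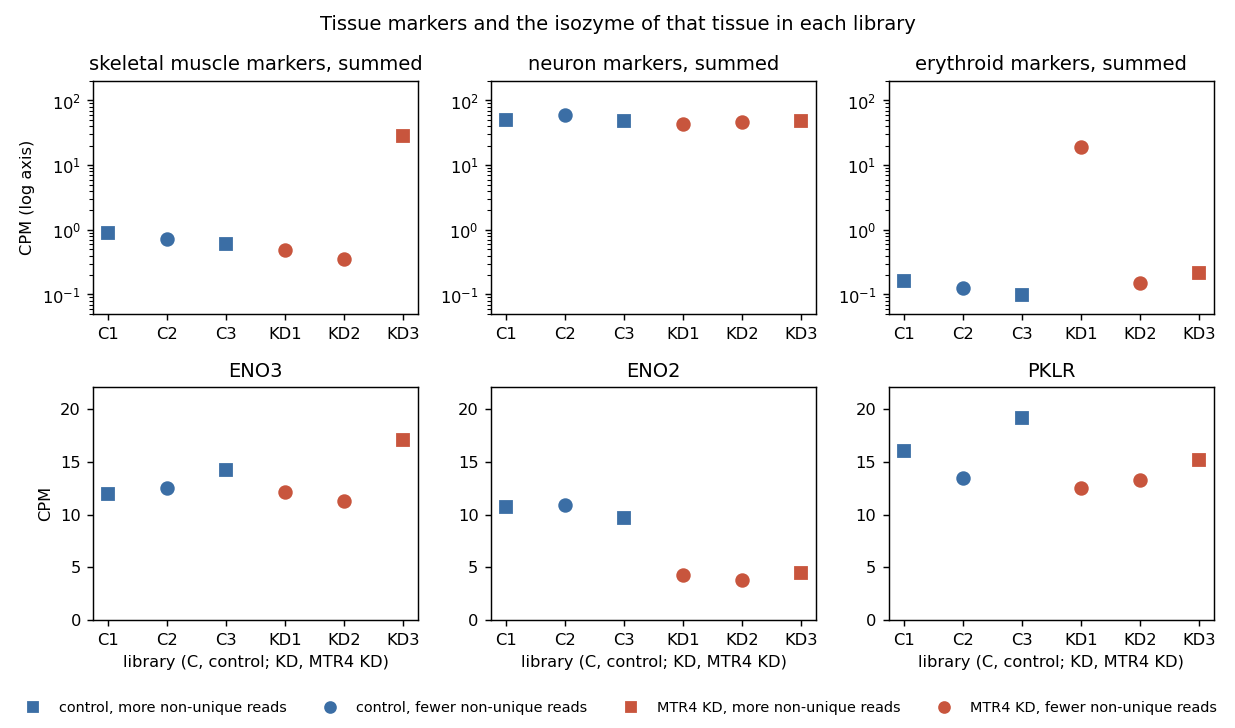
Summed CPM of the muscle, neuron and erythroid marker lists (upper row, log axis) and CPM of ENO3, ENO2 and PKLR (lower row, from 0) in each library; squares and circles are libraries with more non-unique reads and with fewer. Muscle markers reach 27.8 CPM in MTR4 KD replicate 3, which also has the highest ENO3 (17.0 CPM), and erythroid markers reach 18.8 CPM in MTR4 KD replicate 1.

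Reads that fit several places are not counted on genes here, and several members have many processed pseudogenes. The annotation names 93 of them after 6 of the 9 genes, 65 of these after GAPDH and 13 after PGAM1, and none after ENO2, ENO3 or PKLR. The pseudogenes of all members took 359 to 524 reads per library in all, between 0.0708% and 0.123% of the reads of the members. The most read were TPI1P2, with 121 to 217 reads, and GAPDHP14, with 88 to 138 reads. With these reads added to their parent genes, the median log2 fold change of the 9 genes was -0.40 and the same number of members passed the test. How many reads of the members were set aside as non-unique cannot be read from counts per gene.

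GAPDH, TPI1 and ENO2 lie within 389 kb of each other on chromosome 12, from 6534517 to 6923697 of GRCh38, with 20 other protein-coding genes inside this interval. Of the 17 of these that were tested, none passed the test in either direction (edgeR, adjusted p under 0.05), 12 had an estimate below 0, and the median log2 fold change was -0.10. On either side of TPI1 the log2 fold change was 0.05 for USP5 and 0.10 for SPSB2, and LRRC23, just before ENO2, was at -0.10.

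The upper pathway and the lactate step are given for comparison. Of the 12 genes of the upper pathway list, 10 passed the filter on low counts. Of these, 4 fell (adjusted p under 0.05 in edgeR's test), against 2.12% of all tested genes, and the median log2 fold change of the 10 was -0.32. The largest falls were those of ALDOC (log2 fold change -1.75, adjusted p = 0.000684), PFKP (-1.23, adjusted p = 0.000544) and HK2 (-1.01, adjusted p = 0.0112). At the end of the pathway LDHA, the lactate dehydrogenase subunit that is abundant in tumors, fell with a log2 fold change of -0.62 (adjusted p = 0.00328), whereas LDHB was at -0.01 (adjusted p = 0.962) and LDHC at -0.11 (adjusted p = 0.913).

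**Figure D5:**
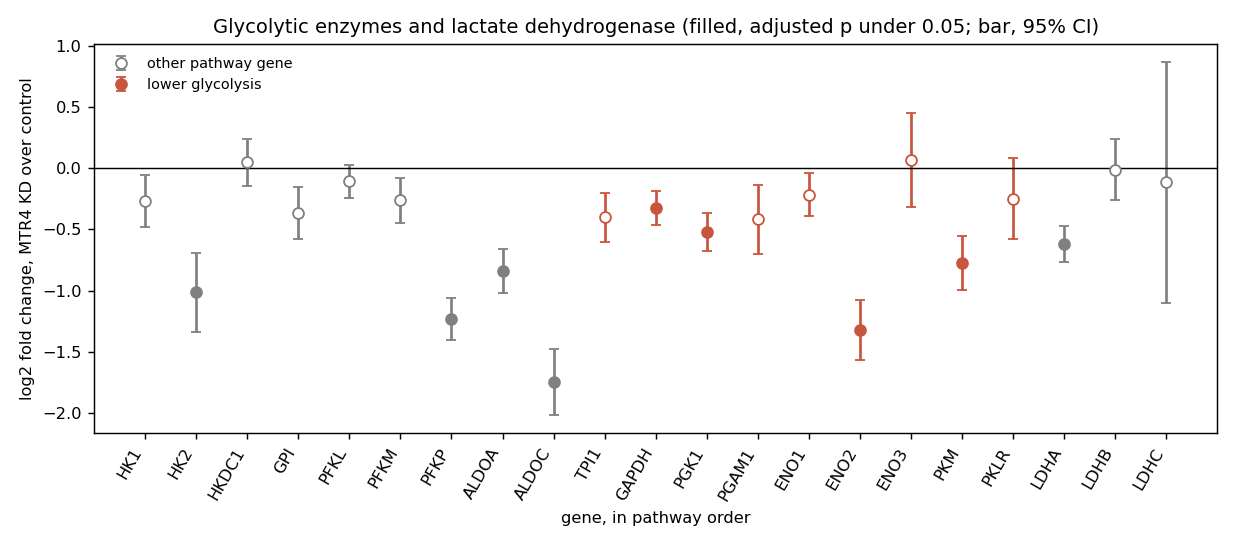
Log2 fold change (MTR4 KD over control) with 95% confidence interval for the enzymes reported here, in pathway order, lower glycolysis in red and other genes in grey, filled where the adjusted p is under 0.05. In the lower part ENO2 (-1.32) and PKM (-0.77) show the largest falls, and in the upper part ALDOC (-1.75) and PFKP (-1.23) do.

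Of the 7 paralogs and neighbours of the members, GAPDHS, PGK2, PGAM2, PGAM4 and ENO4 did not pass the filter, with at most 5 reads in any library. Both tested genes, BPGM, which makes 2,3-bisphosphoglycerate, and PGAM5, a mitochondrial phosphatase, had log2 fold changes of 0.06 (adjusted p = 0.740 and 0.776 in edgeR's test). Among 11643 other protein-coding genes with a mean of at least 100 counts, the 5 whose profile over the 6 libraries was nearest to the mean profile of the 9 members were MUC13, TUBA1B, PVR, TSPAN15 and KMT5A. Their root mean square difference from it was 0.0241 to 0.0383 on the log2 scale, where the median gene had 0.271. The genes nearest to PKM were ITGB5, CMTM3 and VNN2, with differences of 0.0265, 0.0328 and 0.0368 on the log2 scale.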

How the data were processed

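RNA-seq was analysed in 3 control and 3 MTR4 KD libraries of PLC/PRF5 cells. The authors deposited raw read counts per Ensembl gene, without normalization, with the reads of each class not counted on a gene. According to the study's methods and the submitters' processing notes, reads were aligned with HISAT2 2.1.0 to GRCh38 (Ensembl annotation) and counted with HTSeq. Non-unique reads were left out by that counting.

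The 9 members, the gene lists, the split by non-unique reads (over 30% of all entries) and the tests were chosen with earlier results of these data known. Genes were kept by edgeR's filterByExpr (minimum count 10), scaled by TMM, and tested by the quasi-likelihood test of edgeR 4.0.16 (R 4.3.3) on condition alone, with p-values adjusted by Benjamini-Hochberg over 18075 genes. A gene was called at an adjusted p under 0.05. Named genes are the members, MTR4, the tested paralogs, lactate dehydrogenases, at most 3 upper pathway genes per direction and the nearest profiles. Others were named after their values were seen, and values of single genes of the upper pathway list are in part not reported here. Isozyme ratios used counts per kilobase of the canonical transcript (0.5 added per count). Differences within the split are of mean log2 CPM (prior count 0.5). Symbols matched 56959 of 60675 genes in GENCODE lifted to GRCh37, which gave only names, biotypes, lengths and overlaps, and positions came from RefSeq on GRCh38.p14. PECAM1 of the marker lists was not matched. The depth left each member with 253 or more reads per library. Alternatives used DESeq2 1.42.0 and limma 3.58.1 (voom). Tables and plots were made in Python 3.11.15 with matplotlib 3.10.9 and pandas 2.3.3.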

Additional observations from a re-analysis of the deposited data

How the results depend on the processing

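Of the 9 genes, only ENO3 changed direction, to -0.13 (log2) without MTR4 KD replicate 3. Scaled to ACTB, which moved the median log2 fold change of all genes to 0.19, the median of the members was -0.21. On that scale 2 members were called lower, against 169 of all 18075 tested genes, with GAPDH (-0.13) and PGK1 (-0.33) not called. TPI1 was called with no filter (log2 fold change -0.41), with a filter of 1 CPM in 3 libraries (-0.40), with DESeq2 (-0.40) and with the split by non-unique reads as a term (-0.34), PGAM1 with DESeq2 (-0.42) and the split (-0.32), and ENO1 with the split (-0.24). DESeq2 called 1363 genes in all, 227 of them with a fold change over 2, against 650 and 150 by edgeR, and the fit with the split called 3649 and 347, with 7 members and 8 other pathway genes lower. With each library left out in turn, 137 to 803 genes were called, 73 to 180 of them with a fold change over 2, and 1 to 6 members. Log2 fold changes then ranged from -0.36 to -0.29 for GAPDH, -0.55 to -0.47 for PGK1, -0.86 to -0.70 for PKM, -0.55 to -0.35 for PGAM1, -0.47 to -0.34 for TPI1, -0.27 to -0.16 for ENO1, -0.37 to -0.11 for PKLR and -0.13 to 0.18 for ENO3. The cause of these differences was not tested.

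With the replicate number as a block, 6 members were called lower, TPI1 (-0.40) and PGAM1 (-0.41) in addition. Of the 857 genes called in all, 515 were lower, among 18075 tested. The deviations of same-numbered libraries from their group means correlated across genes at -0.215, 0.301 and 0.326 for numbers 1, 2 and 3. Not every library correlated best with its own number. The libraries of number 2, and those of number 3, also lie on the same side of the split by non-unique reads, and those of number 1 do not. A pairing by number therefore cannot be told apart from the split here.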
